A study of Mus musculus with 10 samples.

Results

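The genes described here are 10 mouse genes of the BCL2 family, whose proteins hold back or bring about the death of a cell through its mitochondria. They were chosen by name, and are 10 of the 55573 genes in the table. All 10 were among the 11978 genes tested, which had 2 or more libraries at 1 CPM or above (CPM is the read count scaled to the same total of reads on genes). Bcl2a1a reached 1 CPM only in libraries of 2 of the treatments described next, and Bcl2a1d only in libraries of 3, so both entered the test through groups in which they were high and had to differ.

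RNA-seq was performed on bone marrow-derived macrophages (BMDMs) of WT female C57BL/6 mice, grown in medium with the macrophage growth factor MCSF and treated for 4 hours. The 5 groups of 2 libraries each received vehicle; 5 µg polyU, a single-stranded RNA complexed with the lipid carrier DOTAP; 1 µM ulodesine, an inhibitor of purine nucleoside phosphorylase (PNPi), with 5 µM deoxyguanosine and 5 µM guanosine (PNPi+dG/rG); the same polyU and PNPi+dG/rG together (PNPi+dG/rG+polyU, named the combination from here on); or 1 ng/mL R848, a small synthetic TLR7 agonist. TLR7 is an endosomal receptor that binds guanosine together with uridine-rich RNA, and the design asks whether guanosines kept from breakdown act with RNA on macrophages. The labels call the libraries biological replicates and do not say whether they came from separate mice, or whether vehicle wells held DOTAP, so p-values measure only the spread between such libraries. Libraries held 14128124 to 38392593 reads on genes, deepest with PNPi+dG/rG, and 3 reads corresponded to 0.0781 to 0.212 CPM.

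In this family, anti-apoptotic proteins such as BCL2, BCL-XL, MCL1 and A1 hold the pore-forming effectors BAX and BAK in check at the outer mitochondrial membrane. BH3-only proteins such as BIM, PUMA and NOXA are made or freed under stress and bind the anti-apoptotic proteins, or the effectors themselves, so that the membrane opens, cytochrome c leaves and caspases are switched on. In macrophages, A1 is a textbook target of NF-κB, and MCL1 is a short-lived protein set by its turnover as well as its mRNA. The libraries measured mRNA of whole cultures, neither protein nor cell death, and fewer cells of a type cannot be told apart from less RNA per cell.

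The labelled cell type was checked against marker genes. All 8 macrophage markers (Adgre1, Cd68, Csf1r, Lyz2, Itgam, Mertk, Fcgr1, Cd14) were present and summed to 15200 to 18030 CPM per library, led by Lyz2 (7756 to 11490 CPM). Of 8 fibroblast markers, 7 reached 1 CPM in a library, and Lum did not. Their sum was 0.617 and 1.18 CPM with vehicle, 1.08 and 1.22 with polyU, 1.02 and 1.47 with PNPi+dG/rG, 4.11 and 5.28 with the combination, and 151 and 161 with R848. Both R848 libraries stood far above the rest, led by Col1a1 (51.6 and 58.3 CPM). The 4 endothelial markers summed to 64.5 to 246 CPM, lowest with R848, led by Kdr except in the R848 libraries, where Vwf led (43.7 and 46.5 CPM). The 10 neutrophil markers summed to 4.53 to 25.2 CPM, highest with R848, with Ly6g and Retnlg at 0 in every library. In the R848 libraries S100a8 (21.0 and 23.4 CPM) and Camp (1.91 and 1.81) were at their highest, whereas S100a9 (0.0531 and 0), Ngp (0 and 0) and Ltf (0 and 0) were at their lowest. With the gene of the highest value in any library in parentheses, markers of T cells summed to at most 7.36 CPM (Trac; Cd3d and Cd3e at 0), of dendritic cells to 1.77 (Ccr7 and Zbtb46 alike; Xcr1 at 0), of B cells to 0.651 (Cd79b), of erythroid cells to 0.283 (Hbb-bs) and of mast cells and basophils to 0.174 (Cpa3; Fcer1a and Ms4a2 at 0). The part of these other cell types' genes in the R848 values below was not tested.

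Changes were tested with limma on log2 CPM over all 10 libraries, and a gene is called here at a Benjamini-Hochberg adjusted p under 0.05, taken over all 11978 genes, and at least 2-fold. The 4 comparisons against vehicle share the same 2 vehicle libraries. PolyU alone called 3 of the 10 family genes higher and 0 lower, where 3.21% of all genes tested were called higher and 0.776% lower. PNPi+dG/rG alone called 0 of the 10 in limma, where 0.0668% of genes were called higher and 0.00835% lower. Of the 10, 0 had an unadjusted p under 0.05 (1076 of all genes did), and 0 were called under voom weights. With PNPi+dG/rG the log2 fold changes of the 10 genes ran from −0.12 (Bbc3) to 0.31 (Bcl2a1a), and a test that is not passed does not show that levels were equal. The combination called 3 higher and 2 lower, beside 8.12% and 14.3% of all genes. R848 called 3 higher and 3 lower, beside 8.89% and 30.3%, so that the share of family genes called lower was near that of all genes. Bcl2a1a reached 1 CPM only with the combination and R848, and Bcl2a1d only with these and polyU, so counts over them are given as a description. The genes called higher were Bcl2a1a, Bcl2a1b and Bcl2a1d in each of the 3 comparisons that called any, and these are copies that share sequence. The genes called lower were Bcl2 and Bcl2l1, joined by Pmaip1 with R848.

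Between the treated groups, the combination against polyU called 3 family genes higher and 1 lower, beside 5.29% and 10.2% of all genes. The interaction, which is the effect of PNPi+dG/rG in the presence of polyU minus its effect without polyU, called 3 higher and 1 lower, beside 4.55% and 8.87%. In both, the Bcl2a1 genes were those called higher and Bcl2 the gene called lower. The combination against R848 called 1 higher and 0 lower, beside 16.9% and 3.86%. The median log2 fold change of the 10 genes was 0.26 with polyU, −0.045 with PNPi+dG/rG, −0.22 with the combination and −0.12 with R848. Over all genes tested it was 0.016, 0.018, −0.22 and −0.50, so the typical gene was itself lower on the CPM scale with the last 2 treatments. Centring each library on its median added 0.21 to every log2 fold change of the combination and 0.59 to those of R848, against vehicle. It added 0.25 against polyU and 0.29 to the interaction, and moved the combination against R848 by −0.38. It changed the split of all genes called higher and lower to 1192 and 1245 (from 973 and 1712) with the combination, and to 1792 and 2107 (from 1065 and 3633) with R848. Against polyU it became 829 and 755 (from 634 and 1219), against R848 1194 and 852 (from 2019 and 462), and for the interaction 751 and 567 (from 545 and 1062).

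**Figure D1:**
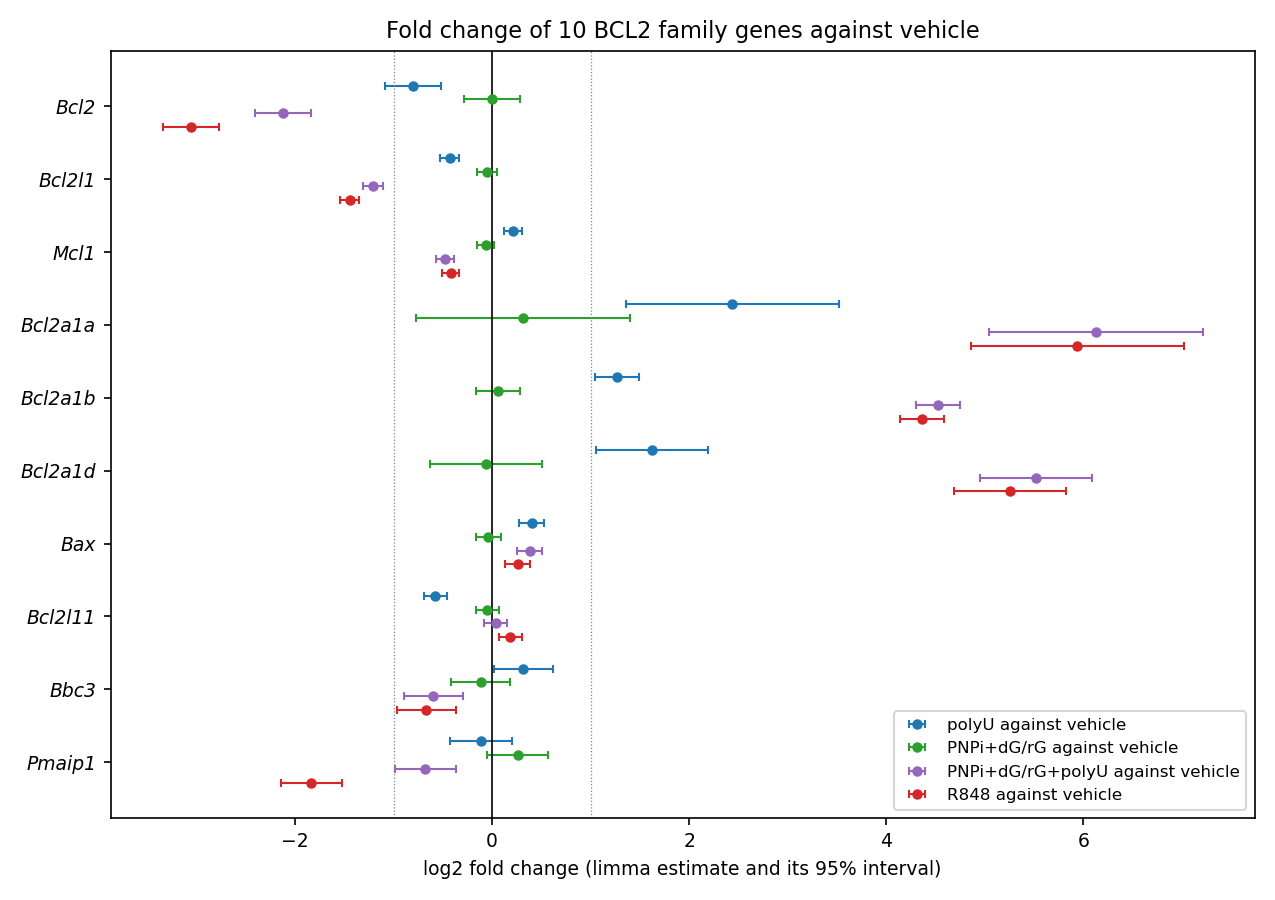
Log2 fold change against vehicle of the 10 BCL2 family genes, as the limma estimate with its 95% interval, for the 4 treatments in colour (PNPi+dG/rG+polyU is the combination); the dotted lines mark 2-fold. The 3 Bcl2a1 genes lie far to the right with the combination and R848 (up to 6.13), and Bcl2 lies farthest to the left with R848 (−3.06); centring the libraries would move all R848 points by 0.59, which takes Mcl1 across 0.

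Bcl2 (chr1:106538178-106714274, minus strand, GRCm38) encodes the anti-apoptotic protein that gave the family its name. Its level was 45.3 and 43.5 CPM with vehicle, 25.7 and 25.2 with polyU, 43.3 and 45.5 with PNPi+dG/rG, 8.56 and 12.2 with the combination, and 5.74 and 4.96 with R848. The vehicle and PNPi+dG/rG libraries overlapped, and the other groups lay below them in the order polyU, the combination and R848, none overlapping another. Against vehicle, Bcl2 fell with polyU (log2 fold change −0.80 ± 0.13 SE, limma adjusted p = 2.61e-04), to less than the 2-fold needed for a call. It fell 4.35-fold with the combination (−2.12 ± 0.13, adjusted p = 2.91e-09) and 8.32-fold with R848 (−3.06 ± 0.13, adjusted p = 2.22e-11). With PNPi+dG/rG alone the interval of its log2 fold change was −0.29 to 0.28. The interaction was −1.31 ± 0.19 (adjusted p = 5.53e-05), and adding PNPi+dG/rG to polyU lowered Bcl2 by a log2 fold change of −1.32 ± 0.13 (adjusted p = 9.22e-07). Bcl2 was higher with the combination than with R848 by 0.94 ± 0.13 (adjusted p = 2.13e-05), which came to 1.19 without replicate 1 of the combination and 1.04 without R848 replicate 1, and then passed 2-fold, but 0.55 with libraries centred. Among 8458 other genes that averaged 10 CPM or more, the 3 nearest to Bcl2 in their 4 log2 fold changes against vehicle were Rassf8, Cdk18 and Dhrs9 (root mean square differences of 0.0897, 0.103 and 0.139).

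Bcl2l1 (chr2:152780668-152831728, minus strand) encodes BCL-XL, and a splice form of it, which gene-level values do not separate, promotes death. It was measured at 266 and 274 CPM with vehicle, 196 and 204 with polyU, 266 and 255 with PNPi+dG/rG, 115 and 119 with the combination, and 97.1 and 101 with R848. The order of the groups was that of Bcl2, again with overlap only between vehicle and PNPi+dG/rG. Bcl2l1 fell with polyU (−0.43 ± 0.047, adjusted p = 2.88e-06), by 2.31-fold with the combination (−1.21 ± 0.047, adjusted p = 1.98e-12) and by 2.72-fold with R848 (−1.45 ± 0.047, adjusted p = 9.75e-14). Centring the libraries left both falls short of 2-fold (−0.99 and −0.85). Adding PNPi+dG/rG to polyU lowered it (−0.78 ± 0.047, adjusted p = 9.20e-10), and the interaction was −0.72 ± 0.066 (adjusted p = 2.84e-07), and −0.44 with centring. The combination lay above R848 by 0.24 ± 0.047 (adjusted p = 2.84e-04), a difference that turned to −0.14 with centring. Its nearest profiles were those of Dip2a, Ado and Arid1b (root mean square differences of 0.0507, 0.0519 and 0.0529).

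Mcl1 (chr3:95658788-95663176, plus strand) encodes an anti-apoptotic protein on which many blood cells depend. It had 738 and 750.1 CPM with vehicle, 839 and 885 with polyU, 686 and 736 with PNPi+dG/rG, 529 and 540.4 with the combination, and 549.9 and 561 with R848. No groups overlapped: polyU was highest, then vehicle and PNPi+dG/rG, with R848 and the combination lowest. All its changes were under 2-fold. Mcl1 rose with polyU (0.21 ± 0.042, adjusted p = 8.43e-04) and fell with the combination (−0.48 ± 0.042, adjusted p = 5.50e-08, and −0.27 with centring). With R848 it fell on the CPM scale (−0.42 ± 0.042, adjusted p = 1.39e-07) and rose relative to the median gene (0.17 with centring, again past the test), so its direction depended on the scaling. PNPi+dG/rG alone gave −0.066 ± 0.042 (adjusted p = 0.716). Against polyU, adding PNPi+dG/rG lowered Mcl1 (−0.69 ± 0.042, adjusted p = 1.04e-09; −0.43 with centring), and the interaction was −0.62 ± 0.059 (adjusted p = 4.58e-07; −0.34 with centring). The combination and R848 differed by −0.055 ± 0.042 (adjusted p = 0.251), but by −0.44, past the test, with centring. The nearest profiles were those of Card9, Pbx2 and Fkbp15 (root mean square differences of 0.0522, 0.0571 and 0.0701).

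**Figure D2:**
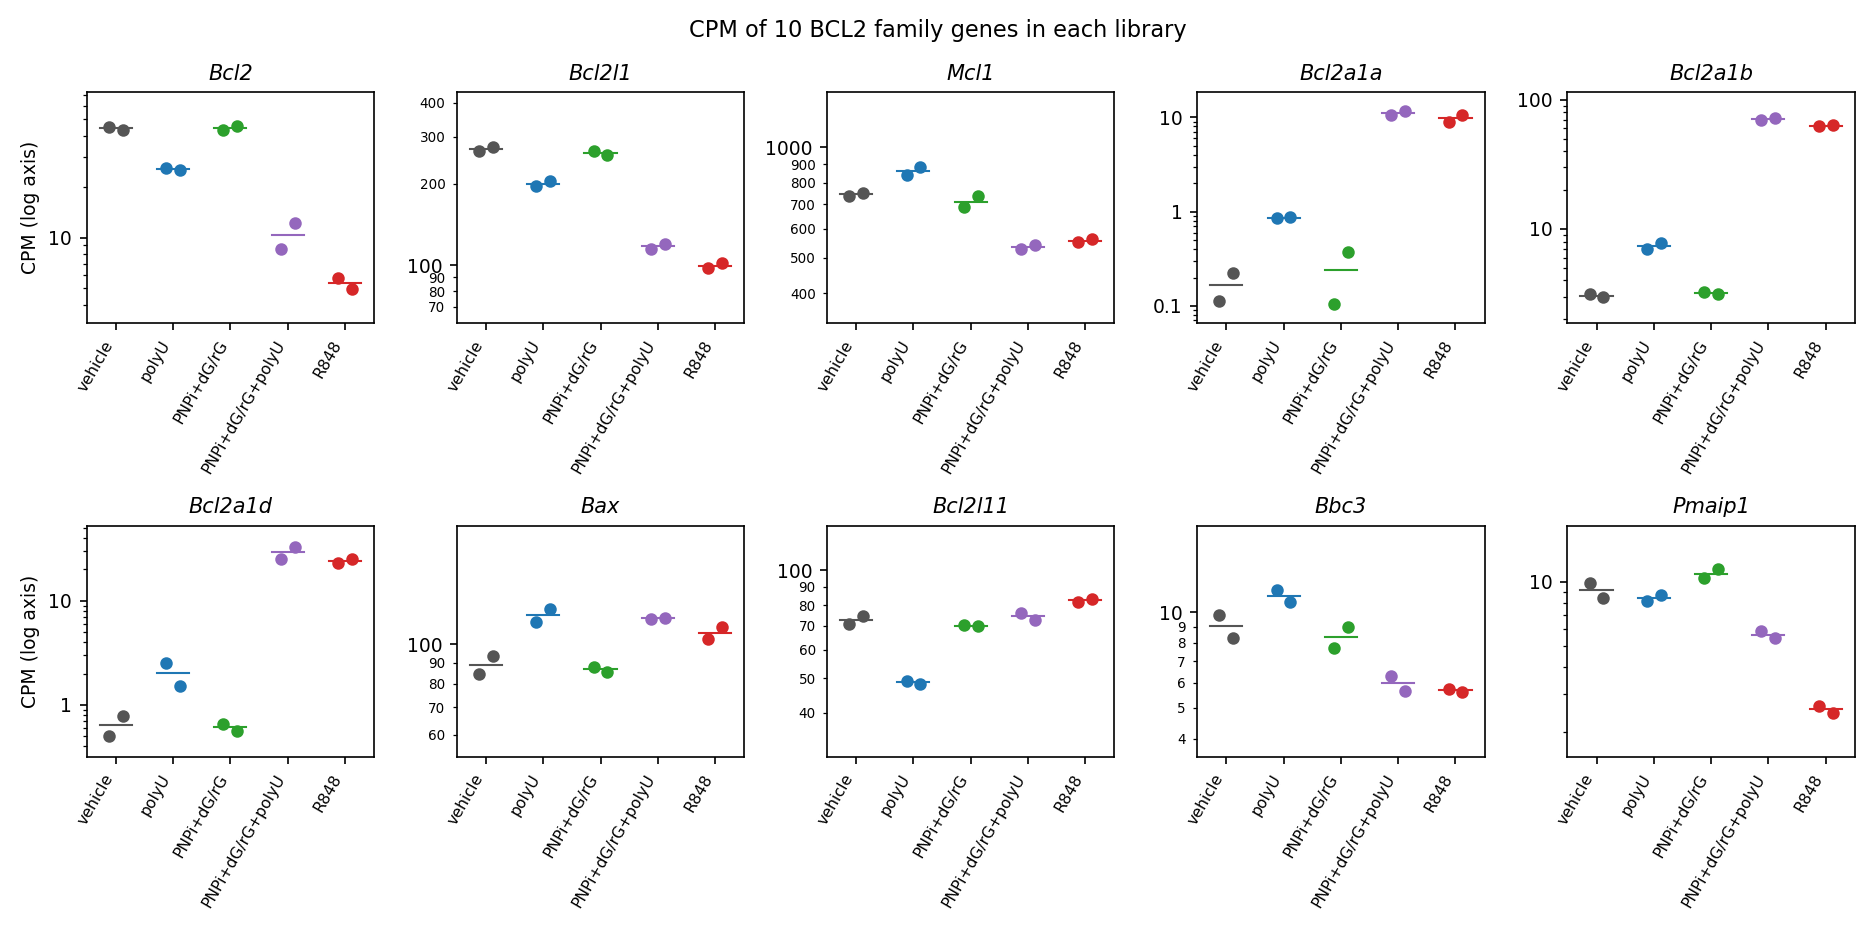
CPM of each of the 10 genes in each library on log axes, with 1 point per library, 2 libraries per group (PNPi+dG/rG+polyU is the combination) and a line at the group mean. The Bcl2a1 genes are high with the combination and R848 (Bcl2a1b 69.3 and 71.6 CPM against 3.14 and 2.98 with vehicle), where Bcl2 (8.56 and 12.2 against 45.3 and 43.5), Bcl2l1 and Pmaip1 are low.

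Bcl2a1a, Bcl2a1b and Bcl2a1d are copies of the gene for A1, an anti-apoptotic protein of blood cells. Bcl2a1b was measured at 3.14 and 2.98 CPM with vehicle, 6.99 and 7.79 with polyU, 3.26 and 3.13 with PNPi+dG/rG, 69.3 and 71.6 with the combination, and 62.4 and 63.5 with R848. Vehicle and PNPi+dG/rG overlapped at the bottom, polyU lay above them, and the combination lay above R848 without overlap. Bcl2a1b rose 2.41-fold with polyU (1.27 ± 0.10, adjusted p = 1.37e-07), 23.0-fold with the combination (4.53 ± 0.10, adjusted p = 3.71e-15) and 20.6-fold with R848 (4.36 ± 0.10, adjusted p = 2.48e-15). Adding PNPi+dG/rG to polyU raised it 9.55-fold (3.26 ± 0.10, adjusted p = 4.55e-13), where PNPi+dG/rG alone gave 0.061 ± 0.10, and the interaction was 3.19 ± 0.15 (adjusted p = 1.06e-10).

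Bcl2a1d had 0.505 and 0.787 CPM with vehicle (9 and 14 reads), 2.50 and 1.51 with polyU, 0.651 and 0.561 with PNPi+dG/rG, 25.3 and 33.1 with the combination, and 22.9 and 25.2 with R848. Its groups lay in the order of Bcl2a1b, with overlap of vehicle and PNPi+dG/rG. Bcl2a1d reached 1 CPM only with polyU, the combination and R848, and so had to differ. Its fold changes and p-values are therefore a description. It rose 45.9-fold with the combination (5.52 ± 0.27, adjusted p = 3.55e-11), 38.1-fold with R848 (5.25 ± 0.27, adjusted p = 3.43e-11) and 3.08-fold with polyU (1.62 ± 0.27, adjusted p = 1.76e-04). Under the alternatives, the log2 fold changes with the combination and R848 came to as little as 4.19 and 3.93. The rise with polyU was short of 2-fold (0.85) with a pseudocount of 1 CPM. Adding PNPi+dG/rG to polyU raised it 14.9-fold (3.89 ± 0.27, adjusted p = 4.75e-09), and the interaction was 3.95 ± 0.38 (adjusted p = 4.84e-07).

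Bcl2a1a was the lowest of the copies, at 0.112 and 0.225 CPM with vehicle (2 and 4 reads), 0.852 and 0.872 with polyU, 0.104 and 0.374 with PNPi+dG/rG, 10.6 and 11.6 with the combination, and 8.97 and 10.6 with R848. PolyU lay above vehicle and PNPi+dG/rG, which overlapped, and the last 2 groups lay above all others. Bcl2a1a reached 1 CPM only with the combination and R848, and so had to differ. Its fold changes and p-values are likewise a description. Its log2 fold change was 2.44 ± 0.50 with polyU (adjusted p = 0.00156), 6.13 ± 0.50 with the combination (adjusted p = 7.94e-08) and 5.94 ± 0.50 with R848 (adjusted p = 6.46e-08). With a pseudocount of 1 CPM these came to 0.67, short of 2-fold, 3.37 and 3.20, since the fold rests on 6 vehicle reads in all. As a ratio of summed reads scaled by depth, which covers counting error only, the combination over vehicle was 66.0 (exact 95% interval 30.0 to 181) and R848 over vehicle 59.3 (exact 95% interval 27.0 to 162). Adding PNPi+dG/rG to polyU gave 3.69 ± 0.50 (adjusted p = 2.20e-05), and the interaction was 3.37 ± 0.71 (adjusted p = 0.00143). With a library left out the interaction ran from 2.45 without PNPi+dG/rG replicate 1 to 4.29 without PNPi+dG/rG replicate 2.

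None of the 3 copies differed between the combination and R848 in the test (0.19 ± 0.50 for Bcl2a1a, 0.16 ± 0.10 for Bcl2a1b and 0.27 ± 0.27 for Bcl2a1d, adjusted p = 0.749, 0.178 and 0.383), and the sign of each turned with centring (−0.19, −0.22 and −0.12). Fitted on the 2 groups compared alone, or with voom weights, Bcl2a1b and Bcl2a1d did pass the test as higher with the combination. The nearest profiles, with the other copies left aside, were Ccrl2, Batf and Slco3a1 (root mean square differences of 0.188, 0.245 and 0.321) for Bcl2a1b. For Bcl2a1d they were Cd40, Ccl3 and Dusp2 (root mean square differences of 0.121, 0.345 and 0.360), and for Bcl2a1a Tnfsf15, Hcar2 and Fpr2 (root mean square differences of 0.230, 0.284 and 0.331).

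The levels of single copies are uncertain because their transcripts are nearly alike. Of the distinct 50-base stretches of each gene's annotated transcripts, as long as the reads, 69.0% of Bcl2a1a, 79.2% of Bcl2a1b and 79.5% of Bcl2a1d occur in another gene. Bcl2a1d shared 64.0% of its stretches with Bcl2a1a and 54.3% with Bcl2a1b. Summed over the 3 copies, the level was 3.76 and 3.99 CPM with vehicle, 10.3 and 10.2 with polyU, 4.01 and 4.06 with PNPi+dG/rG, 105 and 116 with the combination, and 94.3 and 99.3 with R848. The sum keeps the order of groups seen in the single copies, and does not depend on how reads were divided among these 3. It does depend on whether shared reads were dropped, counted more than once or given to other genes, which is not known. The group means were 2.65 times vehicle with polyU, 28.6 times with the combination and 25.0 times with R848. A further copy, Bcl2a1c, never reached 1 CPM and was not tested, with 0 and 0.169 CPM with vehicle, 0.991 and 0.985 with the combination and 0.531 and 0.490 with R848. Its ratio of summed reads to vehicle, with 3 reads there, was 11.7 (exact 95% interval 3.62 to 60.3) with the combination.

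The copies lie within the same region of chromosome 9 of GRCm38: Bcl2a1d at chr9:88723285-88731914 on the minus strand, Bcl2a1a at chr9:88956900-88962419 and Bcl2a1b at chr9:89199209-89207827, both on the plus strand. Bcl2a1c lies apart, at chr9:114330135-114330578. The predicted gene Gm29094 shares 401 of the 817 exon bases of Bcl2a1b on the same strand (49.1%). Gm29094 was listed at 0 in every library, and how reads on the shared bases were assigned was not tested. Its transcripts also share 50-base stretches with Bcl2a1a (168) and Bcl2a1d (187).

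**Figure D3:**
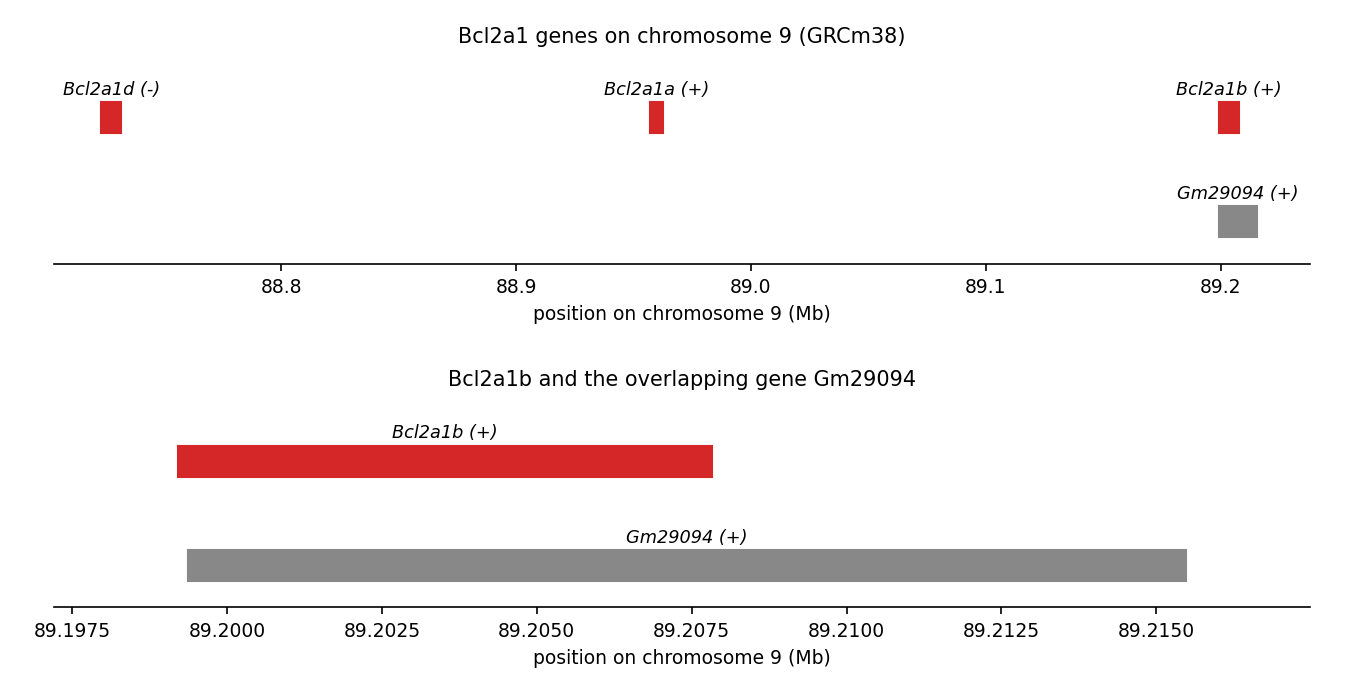
Positions on mouse chromosome 9 (GRCm38, in megabases) of the 3 Bcl2a1 genes tested, with strand in parentheses, and below them a closer view of Bcl2a1b and Gm29094. Boxes span whole genes, introns included, and the 2 genes in the closer view share 401 exon bases.

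The listed values of the copies moved together, and the part of shared reads in this was not tested. The promoters of the copies are shown, taken from RefSeq (GRCm38.p6), which held a promoter for 9 of the 10 genes and none for Pmaip1. In the 250 bases before the RefSeq start, both strands were searched for the letters TGANTCA (N is any base), a looser pattern than the AP-1 consensus. They were also searched for an interferon-response type of motif (GAAA, any 2 bases, GAAA), and for the NF-κB consensus. TGANTCA stood, as TGAATCA, in all 3 Bcl2a1 windows, at 120 to 114 bases before the start in Bcl2a1a, 164 to 158 in Bcl2a1b and 114 to 108 in Bcl2a1d, and in no other window of the 10 genes. Of 32851 windows of this length, 6.75% held it. The distances are to the RefSeq starts, which for these 3 copies lie inside the gene spans given above. The NF-κB consensus stood in 2 of the 14 windows of these genes, 1 of Bcl2l1 and 1 of Bbc3, against 7.25% of all windows, and the interferon-response type in 0 against 2.98%. TGANTCA reads alike on both strands and was counted once, and no match of 1 motif overlapped a match of another. The stretch around TGANTCA, 5′ to 3′ and with the match in capitals, was identical over 60 bases in Bcl2a1a and Bcl2a1b, and identical in 54 of 66 aligned columns, gaps counted, between Bcl2a1a and Bcl2a1d. The other columns of this last pair were all gaps, in part because each stretch was cut at 60 bases. The same stretch of Bcl2a1c, identical to that of Bcl2a1a in 57 of 60 columns, does not hold the match. These are descriptions of letters, and binding was not measured.
Bcl2a1a, chr9:88956790-88956849, plus strand: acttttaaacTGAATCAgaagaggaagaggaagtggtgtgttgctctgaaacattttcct
Bcl2a1b, chr9:89199099-89199158, plus strand: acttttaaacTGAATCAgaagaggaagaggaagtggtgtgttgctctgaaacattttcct
Bcl2a1d, chr9:88731915-88731974, minus strand: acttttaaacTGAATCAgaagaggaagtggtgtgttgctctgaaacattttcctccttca
Bcl2a1c, chr9:114329895-114329954, plus strand: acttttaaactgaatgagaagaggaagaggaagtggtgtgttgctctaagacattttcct

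Bax (chr7:45461697-45466898, minus strand) encodes the pore-forming effector. It had 84.6 and 93.7 CPM with vehicle, 113 and 122 with polyU, 87.7 and 85.7 with PNPi+dG/rG, 116 and 116 with the combination, and 103 and 110.2 with R848. The polyU and the combination libraries overlapped and were highest, R848 lay between, and vehicle and PNPi+dG/rG overlapped at the bottom. Bax rose by less than 2-fold with polyU (0.40 ± 0.060, adjusted p = 7.58e-05), with the combination (0.38 ± 0.060, adjusted p = 3.93e-05, and 0.59 with centring) and with R848 (0.26 ± 0.060, adjusted p = 9.32e-04, and 0.85 with centring). Adding PNPi+dG/rG to polyU gave −0.021 ± 0.060 (adjusted p = 0.780), which turned to 0.23 with centring. The interaction was 0.017 ± 0.085 (adjusted p = 0.878), and 0.30 with centring. Both centred values passed the test (limma adjusted p = 0.00375 and 0.00934). Against R848, the combination was 0.12 ± 0.060 (adjusted p = 0.0834), and −0.26 with centring. It passed the test as lower with centring, and as higher when only the 2 groups were fitted or with a replicate block in which the PNPi+dG/rG numbers were crossed. Bax shares 192 of its 1576 exon bases with Gm45808 on the same strand, which was listed at 0 in every library. The nearest profiles were those of Edf1, Sh3gl1 and Ppp4c (root mean square differences of 0.0333, 0.0455 and 0.0465).

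Bcl2l11 (chr2:128126038-128162547, plus strand) encodes BIM, the BH3-only protein that binds all the anti-apoptotic members. Its libraries held 70.6 and 74.7 CPM with vehicle, 49.2 and 48.2 with polyU, 70.2 and 70.0 with PNPi+dG/rG, 76.1 and 72.8 with the combination, and 81.7 and 83.4 with R848. PolyU was lowest and R848 highest, each apart from the rest, and the combination overlapped vehicle. Bcl2l11 fell with polyU (−0.58 ± 0.055, adjusted p = 6.70e-07). Adding PNPi+dG/rG to polyU raised it again (0.61 ± 0.055, adjusted p = 1.11e-07), and the interaction was 0.66 ± 0.077 (adjusted p = 4.51e-06), opposite in sign to those of Bcl2, Bcl2l1 and Mcl1. The combination against vehicle was 0.035 ± 0.055 (adjusted p = 0.582), but 0.25, past the test, with centring. With R848 Bcl2l11 rose by 0.18 ± 0.055 (adjusted p = 0.00576), by 0.78 with centring, and by 0.14 without vehicle replicate 1, which no longer passed the test. It was lower with the combination than with R848 (−0.15 ± 0.055, adjusted p = 0.0238; −0.53 with centring), a difference that did not pass without replicate 2 of the combination (−0.12), R848 replicate 1 (−0.16) or R848 replicate 2 (−0.13), or with no filter on low values. Its nearest profiles were Uba6, Slc30a4 and Apbb1ip (root mean square differences of 0.0887, 0.0944 and 0.102).

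Bbc3 (chr7:16308393-16318205, plus strand) encodes PUMA, a BH3-only protein known as a p53 target. It was measured at 9.76 and 8.32 CPM with vehicle, 11.7 and 10.8 with polyU, 7.71 and 8.96 with PNPi+dG/rG, 6.30 and 5.63 with the combination, and 5.74 and 5.60 with R848. PolyU was highest without overlap, PNPi+dG/rG overlapped vehicle, and the combination and R848 overlapped each other at the bottom. The difference of polyU from vehicle did not pass the test (0.32 ± 0.14, adjusted p = 0.0892). Bbc3 fell by less than 2-fold with the combination (−0.60 ± 0.14, adjusted p = 0.00144; −0.39 with centring). With R848 it fell on the CPM scale (−0.67 ± 0.14, adjusted p = 4.12e-04), but centring brought this to −0.074 and it did not pass. Against polyU, the combination was lower (−0.91 ± 0.14, adjusted p = 4.02e-05). The interaction was −0.80 ± 0.20 (adjusted p = 0.00381), and −0.51 with centring, which did not pass. The combination and R848 differed by 0.071 ± 0.14 (adjusted p = 0.665), a sign that turned with centring (−0.31). The nearest profiles were those of Tmem60, Dpep2 and Mlst8 (root mean square differences of 0.106, 0.109 and 0.110).

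Pmaip1 (chr18:66458533-66465565, plus strand) encodes NOXA, a BH3-only protein that binds MCL1 and A1. Its level was 9.88 and 8.37 CPM with vehicle, 8.13 and 8.72 with polyU, 10.4 and 11.4 with PNPi+dG/rG, 5.87 and 5.49 with the combination, and 2.66 and 2.45 with R848. PNPi+dG/rG was highest, vehicle and polyU overlapped, and the combination and then R848 lay below without overlap. Pmaip1 fell 3.56-fold with R848 (−1.83 ± 0.15, adjusted p = 8.91e-09) and by less than 2-fold with the combination (−0.68 ± 0.15, adjusted p = 6.75e-04). Neither polyU (−0.11 ± 0.15, adjusted p = 0.590) nor PNPi+dG/rG (0.26 ± 0.15, adjusted p = 0.645) passed the test. It was the 1 family gene called between the combination and R848, 2.23-fold higher with the former (1.15 ± 0.15, adjusted p = 3.84e-06). Centring (0.77) or a pseudocount of 1 CPM (0.91) took this below 2-fold. Against polyU, adding PNPi+dG/rG lowered it (−0.57 ± 0.15, adjusted p = 0.00321), which did not pass with centring (−0.31), and the interaction was −0.83 ± 0.21 (adjusted p = 0.00371; −0.54 with centring). Among its nearest profiles were Gpt2 and Xxylt1 (root mean square differences of 0.0219 and 0.0753).

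Levels of different genes were set side by side as CPM per kilobase of annotated exon, given as mean ± SD of 2 libraries. With vehicle the order began with Mcl1 (218 ± 2.60), Bcl2l1 (58.9 ± 1.29) and Bax (56.6 ± 4.06), the last 2 overlapping between libraries. Bcl2l11 (9.05 ± 0.354), Bcl2 (4.85 ± 0.143), Bbc3 (4.26 ± 0.482), Bcl2a1b (3.75 ± 0.142) and Pmaip1 (3.34 ± 0.389) followed without overlap between neighbours, and Bcl2a1d (0.748 ± 0.231) and Bcl2a1a (0.206 ± 0.0971) came last. PNPi+dG/rG kept this order on the same scale except that Pmaip1 (3.99 ± 0.265) stood above Bbc3 (3.92 ± 0.415) and Bcl2a1b (3.91 ± 0.111), with overlap of each with its neighbour, and Bcl2l1 and Bax again overlapped.

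With polyU, Mcl1 (252 ± 9.45 CPM per kilobase) was followed by Bax (74.7 ± 4.10), Bcl2l1 (43.7 ± 1.22) and Bcl2a1b (9.04 ± 0.690), and among the rest the levels of Bcl2 and Bcl2a1d overlapped. With the combination, Bcl2a1b took the second place (86.2 ± 2.01 CPM per kilobase) after Mcl1 (156 ± 2.39), ahead of Bax (73.5 ± 0.252), Bcl2a1d (33.8 ± 6.39) and Bcl2l1 (25.5 ± 0.629), and Bcl2 came last (1.13 ± 0.278). With R848 the genes stood in the same order, from Mcl1 (162 ± 2.29) and Bcl2a1b (77.1 ± 0.939) to Bcl2 (0.584 ± 0.0598), and no neighbours overlapped in either group. These levels take the shared reads of the Bcl2a1 copies as the table gives them.

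The wider death pathway was described by lists of genes. Of 16 other BCL2 family genes, 9 were tested; Bok, Bik, Bcl2l14, Bcl2l15 and Bcl2a1c stayed under 1 CPM in every library and Bcl2l10 and Hrk were listed at 0. PolyU and PNPi+dG/rG called 0 of these 9. The combination called 0 higher and 1 lower, Bmf (−3.51 ± 0.25), which encodes a BH3-only protein, where all genes gave 8.12% higher and 14.3% lower, with a list median of −0.44 against −0.22 over all genes. R848 called 1 higher, the mitophagy receptor gene Bnip3 (3.32 ± 0.17), and 3 lower, the BH3-only genes Bid (−2.60 ± 0.090) and Bmf (−2.37 ± 0.25) and Bcl2l12 (−1.32 ± 0.18; under 2-fold with centring), with a median of −0.50 against −0.50. Of all genes R848 called 8.89% higher and 30.3% lower, so the share of this list called lower was near that of all genes. Bid was 60.8 ± 3.94 CPM (SD, n = 2) with vehicle, 42.1 ± 4.36 with the combination and 10.0 ± 1.05 with R848. Between the last 2 groups (all genes 16.9% higher and 3.86% lower) Bid (2.07 ± 0.090) was higher with the combination, and Bnip3 (−2.66 ± 0.17) and Bmf (−1.15 ± 0.25) were lower. Bmf was also the 1 gene of this list called against polyU (−2.66 ± 0.25; all genes 10.2% lower) and in the interaction (−2.49 ± 0.36; all genes 8.87% lower). With centring, Bnip3l also passed 2-fold as lower than with R848 (−1.27, from −0.88 ± 0.081).

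Of 14 genes of the apoptosome and caspases, all tested, polyU, PNPi+dG/rG and the combination called 0 against vehicle, the last beside 8.12% higher and 14.3% lower of all genes. Genes of this list called lower with R848 included Htra2 (−2.21 ± 0.054), Parp1 (−1.98 ± 0.056), Casp2 (−1.69 ± 0.094) and Casp9 (under 2-fold with centring). Against R848, Htra2 (1.37 ± 0.054), Parp1 (1.17 ± 0.056) and Casp2 (1.14 ± 0.094) were among those called higher with the combination, all 3 under 2-fold with centring. Against polyU (all genes 10.2% lower), Endog (−1.05 ± 0.23) and Htra2 (−1.02 ± 0.054) were called lower, and Endog (−1.14 ± 0.33) in the interaction, none at 2-fold with centring. Cycs, which encodes cytochrome c, passed 2-fold with R848 only with centring (1.06, from 0.46 ± 0.28).

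Of 5 genes of the IAP proteins, inhibitors of caspases and of death signalling, polyU called Birc3 higher (2.64-fold) and PNPi+dG/rG called 0. The combination called Birc3 (3.48 ± 0.055) and Birc2 (1.23 ± 0.092) higher, also against polyU (2.08 ± 0.055 and 1.08 ± 0.092; all genes 5.29% higher) and in the interaction (1.82 ± 0.077 and 1.01 ± 0.13; all genes 4.55% higher). R848 called Birc3 higher (3.85 ± 0.055) and Birc5, a gene of dividing cells, lower (−6.76 ± 0.46), and Birc5 was higher with the combination than with R848 (6.60 ± 0.46). With centring Birc2 passed 2-fold with R848 too (1.19, from 0.60 ± 0.092). The list median with R848 was −0.015 and with the combination −0.16, against −0.50 and −0.22 over all genes, of which R848 called 8.89% higher and 30.3% lower and the combination 8.12% and 14.3%.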

How the data were processed

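RNA of 10 BMDM libraries was sequenced by the authors (KAPA stranded mRNA libraries, single reads of 50 bases, Illumina HiSeq). Per the labels and methods, bcl2fastq 2.19.1.403 and STAR 2.27a (GRCm38, Ensembl 97) were used, and Partek Flow gave the deposited values, which are CPM plus an offset of 0.0001. How reads on copies, overlapping genes or the opposite strand were counted is not given in the sources used here, so overlapping and antisense partners cannot be told apart. Low CPM values were whole multiples of the value of 1 read (100% within a tolerance of 0.1 reads), which gave the reads per library. Intervals and read floors cover counting error only, as PCR copies are not independent molecules.

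From the deposited CPM, log2 values of the genes that reached 1 CPM in 2 or more libraries were fitted in limma 3.58.1 (R 4.3.3) by group, with trended, robust eBayes and Benjamini-Hochberg adjustment over all 11978 genes. Calling needed an adjusted p under 0.05 and at least 2-fold. The fit was tested on simulated data, in which only genes averaging 10 CPM or more were changed, and only with R848. The fit recovered 100 of 100 genes at an absolute log2 fold change of 1.5 and 100 of 100 at 3, with 2 false calls. Changes in genes of few reads, or a shift of most genes, were not simulated. Replicates of each group differed beyond sampling noise in 15.8 to 26.3% of genes at a 5% chi-square level. Symbols were found for 55394 of 55573 identifiers, and positions and exon lengths come from GENCODE M21 (Ensembl 96, GRCm38), which is not the release the authors used.

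The members and lists were chosen with earlier results of these data known. Besides the 10 genes, lists covered other BCL2 family genes, apoptosome and caspases, IAP proteins, the death receptor and p53 pathways, stress and survival transcription factors, and MCL1 turnover. Every member is named. Of the other lists, the called genes are named in part, with values for some of the larger log2 fold changes per comparison. Bnip3l, Cycs, Tnfrsf1a and Usp9x, called with centring alone, were chosen after their values were seen. Nearest profiles are the 3 tested genes, averaging 10 CPM or more, with the smallest root mean square difference over the 4 log2 fold changes against vehicle. Alternatives were pseudocounts of 0.1 and 1 CPM, other filters, no minimum fold, centring on the median, plain eBayes, voom weights on whole reads, only the groups compared, the replicate block, and leaving out each library.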

Additional observations from a re-analysis of the deposited data

Results flagged for a closer look

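The effect of PNPi+dG/rG differed with and without polyU in 4 of the 10 family genes, by the interaction term of limma at an adjusted p under 0.05 and at least 2-fold, 3 higher and 1 lower, where 4.55% of all genes were called higher and 8.87% lower. The difference of the log2 effects was −1.31 for Bcl2, 3.37 for Bcl2a1a, 3.19 for Bcl2a1b and 3.95 for Bcl2a1d. Without polyU the effect of PNPi+dG/rG was −0.0015, 0.31, 0.061 and −0.060 in the same order, and with polyU −1.32, 3.69, 3.26 and 3.89. Bcl2a1a and Bcl2a1d were tested only because treated groups in which they were high reached 1 CPM, so they had to differ and their values are a description. Groups of 2 libraries were too small to look for a library apart from the rest of its group.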

How the results depend on the processing

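Of the log2 fold changes of family genes recomputed under the alternatives, 1359 kept their direction and their side of the adjusted p threshold, 8 lost it, 9 gained it and 21 turned sign. Plain eBayes and the filter on the mean turned none. With libraries centred on the median the value turned for Mcl1 with R848 (0.17), for Bax against polyU (0.23) and, for PNPi+dG/rG+polyU against R848, for Bcl2l1 (−0.14), Bcl2a1a (−0.19), Bcl2a1b (−0.22), Bcl2a1d (−0.12), Bbc3 (−0.31) and Bax (−0.26), since centring moved every gene by the same amount. Leaving out each library in turn, which leaves a lone sample assumed to vary like the other groups, values near 0 changed sign: Pmaip1 with polyU (−0.23 to 0.0077); with PNPi+dG/rG, Bcl2 (−0.037 to 0.034), Bcl2a1a (−0.61 to 1.24), Bcl2a1d (−0.38 to 0.26) and Bax (−0.11 to 0.035); Bcl2l11 with PNPi+dG/rG+polyU (−0.0046 to 0.075); Bax against polyU (−0.077 to 0.035) and in the interaction (−0.056 to 0.091); and Bbc3 against R848 (−0.010 to 0.15).

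The count of family genes called with polyU was 1 in place of 3 at a pseudocount of 1 CPM, where low genes move less, and 2 with only the groups compared, where Bcl2a1a stayed under 1 CPM and was not tested. PNPi+dG/rG+polyU against R848 called 0 at that pseudocount and 0 with centring, in place of 1, and 1 to 2 with a library left out, 2 without PNPi+dG/rG+polyU replicate 1 or R848 replicate 1. With no minimum fold the counts were 8 with polyU, 9 with PNPi+dG/rG+polyU, 10 with R848, 9 against polyU, 4 against R848 and 9 in the interaction. Over all genes these counts were 4709, 8254, 9835, 7582, 8473 and 6069, against 478, 2685, 4698, 1853, 2481 and 1607 with it. All genes called with polyU came to 303 at a pseudocount of 1 CPM. The 9 genes called with PNPi+dG/rG became 1 and 0 at pseudocounts of 0.1 and 1, 16 with no filter, 4 with a filter on the mean, 3 with voom weights, 4 with the 2 groups alone, 96 with no minimum fold and 2 to 29 with a library left out (29 without vehicle replicate 1, 24 without vehicle replicate 2, 2 without PNPi+dG/rG replicate 2); the cause was not tested.

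Across 8459 genes, the deviations of same-numbered libraries correlated between groups at a median r of −0.023 over 10 pairs of groups. The extremes were −0.29 between vehicle and PNPi+dG/rG, −0.27 between polyU and PNPi+dG/rG, and 0.11 between vehicle and polyU, and what the numbers share is not given in the labels. With the replicate block the counts of family genes were 3, 0, 5 and 6 against vehicle, as without it, and over all genes they were 478, 10, 2679 and 4688. Crossing the replicate numbers of PNPi+dG/rG in that block, the same totals were 482, 9, 2691 and 4698. Depth limits Bcl2a1a, Bcl2a1d and Bcl2a1c most, which had 2 and 4, 9 and 14, and 0 and 3 vehicle reads.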

Other observations

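Of 12 genes of the death receptor pathway, all tested, polyU called Fas (2.63 ± 0.12 SE, limma log2 fold change against vehicle) and Traf1 (1.53 ± 0.077) higher, where 3.21% of all genes were. The combination called 4 higher, Fas (4.31 ± 0.12), Traf1 (3.77 ± 0.077), Cflar (2.63 ± 0.050), which encodes the caspase-8 inhibitor c-FLIP, and Traf2 (1.77 ± 0.077), with a list median of 0.23 against −0.22 and beside 8.12% and 14.3% of all genes called higher and lower. R848 called these 4 genes higher, Fas by 4.98 ± 0.12 and Traf1 by 3.84 ± 0.077, and Fadd (−1.35 ± 0.088) and Ripk3 (−1.31 ± 0.085) lower, both under 2-fold with centring, with a median of −0.18 against −0.50 and beside 8.89% and 30.3%. Against polyU (all genes 5.29% and 10.2%), the combination raised Traf1 (2.24 ± 0.077), Cflar (1.88 ± 0.050) and Fas (1.69 ± 0.12); the interaction (all genes 4.55% and 8.87%) called these 3 higher and Fadd lower (−1.01 ± 0.12), and against R848 (all genes 16.9% and 3.86%) Mlkl was higher (1.19 ± 0.077), both under 2-fold with centring. With centring Tnfrsf1a with R848 (1.06), Traf2 against polyU (1.21) and in the interaction (1.05), and Fas against R848 (−1.05) passed 2-fold as well.

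Of 15 genes of the p53 pathway, 14 were tested and Trp73 was listed at 0. The combination called Btg2 (2.11 ± 0.089), Gadd45a (1.62 ± 0.10) and Cdkn1a (1.22 ± 0.049) higher and Sesn1 (−1.76 ± 0.21) and Trp53inp1 (−1.08 ± 0.19) lower, a list median of −0.13 against −0.22 and beside 8.12% and 14.3% of all genes called higher and lower. R848 called these 5 too, Gadd45a (3.27 ± 0.10), Btg2 (3.19 ± 0.089) and Cdkn1a (1.82 ± 0.049) higher and Sesn1 (−3.60 ± 0.21) and Trp53inp1 (−1.36 ± 0.19) lower, a median of −0.10 against −0.50 and beside 8.89% and 30.3%; Trp53inp1 was under 2-fold with centring in both. Against polyU, 2 were called higher and 4 lower with the combination (all genes 5.29% and 10.2%), Sesn1 (−2.13 ± 0.21) and Gadd45a (1.81 ± 0.10) by most. Zmat3, Phlda3 and Trp53inp1 were under 2-fold with centring, and Cdkn1a past it (1.11, and 1.01 in the interaction). Btg2 also rose, from 13.9 ± 0.917 CPM (SD, n = 2) with polyU to 46.0 ± 1.15 with the combination. The interaction called 2 higher and 4 lower (all genes 4.55% and 8.87%), with log2 values of the list from −2.00 to 1.76. Against R848 (all genes 16.9% and 3.86%) 1 was higher, Sesn1 (1.84 ± 0.21), and 2 lower, Gadd45a (−1.65 ± 0.10) and Btg2 (−1.08 ± 0.089). Of 5 tested genes of MCL1 turnover, Fbxw7 was called lower with R848 (−1.31 ± 0.095; all genes 30.3%) and March5 higher with the combination than with R848 (1.14 ± 0.058; all genes 16.9%), both under 2-fold with centring, where Usp9x passed 2-fold as lower than with R848 (−1.06).

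Of 12 stress and survival transcription factor genes, polyU called Relb (1.63 ± 0.16) and Nfkb2 (1.42 ± 0.056) higher, where 3.21% of all genes were. The combination called 4 NF-κB genes higher, Nfkb2 (2.92 ± 0.056), Relb (2.66 ± 0.16), Nfkb1 (2.55 ± 0.040) and Rel (2.13 ± 0.060), and Foxo3 lower (−1.46 ± 0.067), a list median of 0.80 against −0.22 and beside 8.12% and 14.3% of all genes called higher and lower. R848 called 7 higher, led by Nfkb2 (3.66 ± 0.056), Nfkb1 (2.88 ± 0.040) and Relb (2.73 ± 0.16), and E2f1 (−2.20 ± 0.075) and Foxo1 (−1.48 ± 0.14; under 2-fold with centring) lower, a median of 1.15 against −0.50 and beside 8.89% and 30.3%. Against polyU (all genes 5.29% and 10.2%), 4 were higher, Rel (1.92 ± 0.060) by most, and Foxo3 was lower (−1.20 ± 0.067; under 2-fold with centring). Against R848 (all genes 16.9% and 3.86%), E2f1 was higher (1.48 ± 0.075) and Stat3 lower (−1.26 ± 0.051). With centring Spi1 (1.18) and Rela (1.10) also passed 2-fold with the combination, so that 6 were higher. Rela (1.03) and Stat3 (1.01) did so against polyU and in the interaction (1.02 and 1.01), and Foxo3 (−1.16) and Nfkb2 (−1.13) as lower against R848. PNPi+dG/rG alone called 0 genes of these 4 lists.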
